A study of Mus musculus with 6 samples.

Results

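HSP90 and its co-chaperones were followed here as 10 genes, taken by symbol from a table of raw counts per gene with 55291 gene names. They are the cytosolic HSP90 genes Hsp90aa1 and Hsp90ab1, the mitochondrial HSP90 gene Trap1, and the co-chaperone genes Ahsa1, Ahsa2, Cdc37, Stip1, Ptges3, Fkbp4 and Chordc1. All 10 were in the table and all 10 passed the filter on low counts. Bulk RNA was taken from splenic natural killer (NK) cells, which were pulled out with DX5 beads, then sorted by the presence of CD49b and absence of CD3e, and amplified with a SMART-seq HT kit, with 1 mouse per library. There were 3 libraries of S303/7A mice (S303/7A 5, 6 and 7), whose heat shock factor 1 (HSF1) carries alanine in place of serine at residues 303 and 307, and 3 of mice wild type for HSF1 (WT 1, 2 and 3). Both genotypes were sampled under steady state conditions. The labels give neither the age nor the strain of the mice, and no batch.

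HSP90 is an ATP-driven dimeric chaperone that acts late in folding, on clients such as protein kinases and steroid hormone receptors. Clients arrive from HSP70 through an adaptor, and further co-chaperones then set the speed of the ATPase cycle or the choice of client. HSF1 drives the genes of many of these proteins under stress and is itself held inactive by chaperones, and phosphorylation at serine 303 and serine 307 is known as a repressive mark. The submitters describe S303/7A mice as enhanced for HSF1, and the comparison asks whether their resting NK cells carry other levels of the HSP90 machinery.

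Total counts ranged from 43189163 to 47248039 in S303/7A and from 53845572 to 72736406 in WT, so depth differed with genotype. Single members were covered by 1795 to 89608 counts per library, and the spread between libraries of a genotype, not counting error, set the precision. With 1 library per mouse, differences between mice cannot be told apart from those of sorting and amplification. Summed NK marker levels were 25530 to 27510 CPM in S303/7A and 24150 to 29250 CPM in WT, over 13 genes. The sums overlapped, but 5 of the 13 genes did not, or 38.5% against 16% of all genes. Of the 5, 3 were higher in S303/7A (Ncr1, Klrk1 and Fcer1g) and 2 lower (Klrb1c and Klrd1), named here after their values were seen. Of these Klrb1c was called (adjusted p 0.0454, edgeR quasi-likelihood). CPM are counts scaled to a common total with TMM factors. Hsf1 was at 67.0, 42.2 and 76.9 CPM in libraries S303/7A 5, 6 and 7, against 83.2, 104 and 108 CPM in WT 1, 2 and 3, without overlap, and did not pass the test (adjusted p = 0.386, edgeR quasi-likelihood). The mutation changes codons, so the level of Hsf1 does not check the labels. Several summed marker levels of other cells did not overlap and were lower in S303/7A. Basophil markers (8 genes) summed to 199 to 297 CPM in S303/7A and 329 to 670.3 CPM in WT. Platelet markers (8 genes) summed to 109.9 to 149.6 CPM in S303/7A and 239 to 255 CPM in WT. Neutrophil markers (7 genes) summed to 29.4 to 39.1 CPM in S303/7A and 50.3 to 87.5 CPM in WT, with Cxcr2 making up 72.6%, and without it they overlapped, at 4.41 to 10.7 CPM in S303/7A and 8.85 to 35.7 CPM in WT. Markers of monocytes and macrophages (6 genes) summed to 668 to 673 CPM in S303/7A and 691 to 779 CPM in WT, with Ccr2 making up 93.9%, and without it they overlapped, at 34.6 to 41.8 CPM in S303/7A and 39.9 to 55.4 CPM in WT. T cell markers (7 genes) summed higher, to 179.5 to 205 CPM in S303/7A and 129 to 175.5 CPM in WT. Without Trbc2, which made up 51.9%, they overlapped, at 76.8 to 107 CPM in S303/7A and 54.8 to 93.7 CPM in WT, and Trac alone was lower in S303/7A without overlap. S100a8, S100a9, Ly6g, Elane, Cd4, Cd8a, Gp1bb, C1qa, Pax5, Col1a1, Col3a1 and Kdr averaged under 1 CPM over the 6 libraries. B cell markers (6 genes) overlapped, at 493 to 643 CPM in S303/7A and 321 to 642 CPM in WT. Without Ighm, which made up 92.6%, they also overlapped, at 29.0 to 62.4 CPM in S303/7A and 10.2 to 72.8 CPM in WT. Stromal and endothelial markers (5 genes, with Cdh5 at 0) overlapped, at 96.8 to 129.7 CPM in S303/7A and 103 to 189.9 CPM in WT. Pecam1 made up 99.7% of that sum. The rest was near the floor, at 0 to 0.54 CPM in S303/7A and 0.55 to 0.82 CPM in WT. In bulk RNA fewer cells of a type and less RNA per cell cannot be told apart, and the part of these cells in the results below was not tested.

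None of the 10 genes was called, that is, passed an adjusted p of 0.05 over all 16480 genes tested, where 0.364% were called. At an unadjusted p under 0.05 there were 2 of 10, against 9.68% of all genes, and both were cytosolic HSP90 genes. Those 2 were lower in S303/7A, against 5.47% of all genes, and 0 were higher, against 4.21%. DESeq2, limma-voom and every other alternative also called 0 of 10. The libraries of the genotypes did not overlap for 2 of 10, against 16% of all genes. These were Hsp90ab1, lower in S303/7A (8.37% of all genes), and Ahsa2, higher (7.64%). Fold changes here are S303/7A over WT on the log2 scale, and 6 genes had a positive and 4 a negative one. The median was 0.04, beside 0.01 over all genes. The members' median size of change was 0.11 on the log2 scale, against 0.18 over all genes and 0.09 over the 5051 genes at least as abundant as the lowest member.

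**Figure D1:**
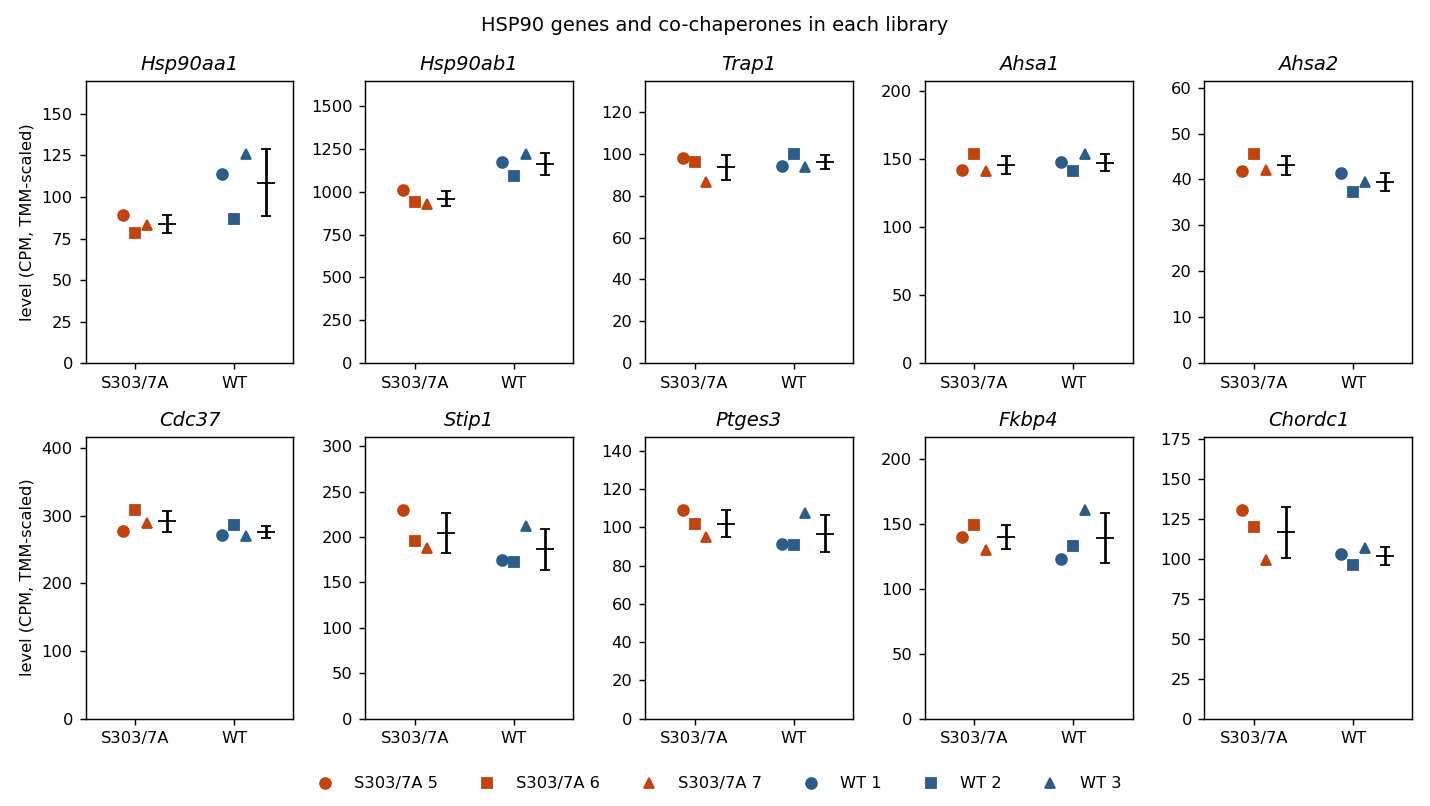
Level of each of the 10 genes in each library, in TMM-scaled CPM on axes that start at 0, with 1 point per mouse and, at the right of each group, the mean and SD of 3 mice. Hsp90ab1 lies at 927 to 1012 CPM in S303/7A and at 1093 to 1219 CPM in WT, and apart from it and Ahsa2 the genotypes overlap.

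Hsp90ab1 (chromosome 17, 45567775 to 45573271, GRCm38, minus strand) encodes HSP90 beta, the constitutive cytosolic form. It was at 1012, 939 and 927 CPM in libraries S303/7A 5, 6 and 7, against 1172, 1093 and 1219 CPM in WT 1, 2 and 3. All 3 S303/7A libraries lay below all 3 WT libraries. The means were 959 ± 45.6 CPM in S303/7A and 1161 ± 63.7 CPM in WT (SD, n = 3 each). The log2 fold was -0.28 ± 0.06 (SE), a level 17.4% below WT, with a 95% interval from -0.43 to -0.12. Its unadjusted p was 0.00352, rank 268 of all genes, and it missed the threshold (adjusted p 0.214, edgeR quasi-likelihood). The fold lay between -0.33 and -0.24 in 13 alternative fits, with adjusted p from 0.129 to 0.447, and was -0.28 when all libraries were thinned to the smallest total. The basophil and platelet marker sums above also separated the genotypes, with or without their most abundant gene, as did Cxcr2, Ccr2 and, in the other direction, Trbc2. Their part in this difference was not tested.

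Hsp90aa1 (chromosome 12, 110690605 to 110702728, minus strand) encodes HSP90 alpha, the stress-inducible cytosolic form. It was at 89.4, 78.5 and 83.4 CPM in libraries S303/7A 5, 6 and 7, against 114, 86.5 and 126 CPM in WT 1, 2 and 3. The groups overlapped because WT 2 lay below S303/7A 5. The means were 83.8 ± 5.45 CPM in S303/7A and 109 ± 20.1 CPM in WT (SD, n = 3 each), so the spread between WT libraries was the wider one. Its log2 fold was -0.38 ± 0.14 (SE, 95% interval -0.71 to -0.04), with p 0.0313 before and 0.454 after Benjamini-Hochberg adjustment (edgeR quasi-likelihood). Without WT 2 the log2 fold was -0.53 ± 0.10 (adjusted p 0.290), and without WT 3 it was -0.26 ± 0.14 (adjusted p 0.609).

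WT 2 also held the highest levels of the inducible HSP70 genes. Hspa1b was at 1.82, 3.02 and 2.08 CPM in libraries S303/7A 5, 6 and 7, against 13.0, 89.3 and 10.9 CPM in WT 1, 2 and 3. Its log2 fold of -4.03 ± 0.80 (SE) was not called (adjusted p 0.181, edgeR quasi-likelihood), while DESeq2 (0.00241) and edgeR with no low-count filter (0.0101) called it. Without WT 2 the log2 fold was -2.38 for Hspa1b and -1.50 for Hspa1a, against -3.61 for Hspa1a with all libraries. The summed level of 10 handling and early response genes, which include Hspa1a and Hspa1b, was 472 to 503 CPM in S303/7A, and 487, 939.5 and 517 CPM in WT 1, 2 and 3. Without Junb, which made up 37.2%, the sums did not overlap, at 258.6 to 285.1 CPM in S303/7A and 315.8 to 679.5 CPM in WT. On this list 4 of 10 genes did not overlap, all lower in S303/7A, or 40% against 16% of all genes. The WT library with the highest inducible HSP70 was thus the WT library with the lowest Hsp90aa1 and Hsp90ab1. The part of handling in these levels was not tested.

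The cytosolic forms can be weighed against each other only per length of exon. Per length, Hsp90aa1 made up 6.32, 6.00 and 6.42% of the summed cytosolic HSP90 transcripts in S303/7A 5, 6 and 7 and 6.89, 5.69 and 7.30% in WT 1, 2 and 3. The share was 6.24 ± 0.221% in S303/7A and 6.63 ± 0.834% in WT (SD, n = 3 each), and the S303/7A values lay inside the WT range. The summed level of both forms was 1148, 1045 and 1042 TPM in S303/7A and 1359.9, 1249 and 1387 TPM in WT, without overlap, and Hsp90ab1 made up nearly all of it. TPM here are counts per kilobase of exon, scaled to the same total in each library.

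Near-identical copies limit how finely the HSP90 counts can be read. A search for matches of at least 200 bases at 90% identity found 5 processed pseudogenes of Hsp90aa1. Of these Gm12346 matches it over 2255 bases at 99.5% identity and Gm5844 over 2202 bases at 98.5%. All 5 copies together held 1290 counts, 4% of the Hsp90aa1 count. For Hsp90ab1 the same search found Gm6368 (91.0% over 2177 bases) and Gm14107, with 85 counts between them. Adding the copies' counts to the gene, an alternative chosen after seeing the data, gave log2 folds of -0.36 for Hsp90aa1 and -0.28 for Hsp90ab1. This adds only reads already counted on the copies. It cannot show how reads that match both gene and copy were counted.

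Trap1 (chromosome 16, 4039971 to 4077827, minus strand) encodes the HSP90 of mitochondria. It was at 97.9, 95.9 and 86.8 CPM in libraries S303/7A 5, 6 and 7, against 94.3, 99.9 and 94.0 CPM in WT 1, 2 and 3. S303/7A 7 lay below every WT library and WT 2 above every S303/7A library, and the others overlapped. The log2 fold was -0.04 ± 0.08 (SE, 95% interval -0.22 to 0.15, adjusted p 0.940, edgeR quasi-likelihood). Trap1 overlaps Dnase1 on the opposite strand, which had 271 to 350.0 raw counts in S303/7A and 406 to 626 in WT. Every WT library had a higher total, so these raw counts do not compare levels between the genotypes. The strand setting of the counting is not given in the sources used here, so reads of that overlap cannot be told apart.

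Stip1 (chromosome 19, 7020702 to 7039967, minus strand) encodes HOP, the adaptor that joins HSP70 to HSP90 and hands the client over. It was at 230.0, 196 and 188 CPM in libraries S303/7A 5, 6 and 7, against 174, 172 and 212 CPM in WT 1, 2 and 3. The highest library of each genotype stood apart from the other 2. Its log2 fold came to 0.13 ± 0.11 (SE, 95% interval -0.13 to 0.40, adjusted p 0.797, edgeR quasi-likelihood), and ranged from 0.04 without S303/7A 5 to 0.24 without WT 3.

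Cdc37 (chromosome 9, 21133222 to 21149982, minus strand) encodes the co-chaperone that brings protein kinases to HSP90. It was at 278, 309 and 289 CPM in libraries S303/7A 5, 6 and 7, against 271, 287 and 270.4 CPM in WT 1, 2 and 3. WT 2 lay inside the S303/7A range, and the other WT libraries lay below it. S303/7A over WT gave a log2 fold of 0.08 ± 0.07 (SE, 95% interval -0.07 to 0.23, adjusted p 0.789, edgeR quasi-likelihood). A Cdc37 transcript shares stretches of 201 to 207 bases with 5 other genes, at 90.1 to 92.3% identity.

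Ahsa1 (chromosome 12, 87266479 to 87273998, plus strand) encodes AHA1, which stimulates the ATPase of HSP90. It was at 142, 154 and 141 CPM in libraries S303/7A 5, 6 and 7, against 148, 141 and 153 CPM in WT 1, 2 and 3. Both genotypes covered almost the same range. Its log2 fold came to -0.02 ± 0.07 (SE, 95% interval -0.18 to 0.15, adjusted p 0.975, edgeR quasi-likelihood).

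Ahsa2 (chromosome 11, 23487882 to 23498030, minus strand) is a relative of Ahsa1 and was at 41.9, 45.5 and 42.0 CPM in libraries S303/7A 5, 6 and 7, against 41.3, 37.3 and 39.5 CPM in WT 1, 2 and 3. All S303/7A libraries lay above all WT libraries, by as little as 41.9 against 41.3 CPM. The log2 fold was 0.13 ± 0.10 (SE, 95% interval -0.09 to 0.36, adjusted p 0.759, edgeR quasi-likelihood). The gene overlaps Usp34, a ubiquitin protease gene on the opposite strand, and 1979 bases of an Ahsa2 transcript match a Usp34 transcript without a mismatch. Usp34 had 1587 to 1979 raw counts in S303/7A and 2049 to 3703 in WT, and Ahsa2 had 1795 to 1962 in S303/7A and 2029 to 2907 in WT. Every WT library had a higher total, so these raw counts do not compare levels between the genotypes. The Ahsa2 count is uncertain because of the overlap with Usp34.

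Ptges3 (chromosome 10, 128058954 to 128077272, plus strand) encodes p23, which binds the ATP-bound, closed form of HSP90 and slows its cycle. It was at 109, 102 and 95.02 CPM in libraries S303/7A 5, 6 and 7, against 91.5, 90.9 and 108 CPM in WT 1, 2 and 3. The WT libraries spanned nearly the whole S303/7A range. Its log2 fold came to 0.08 ± 0.10 (SE, 95% interval -0.15 to 0.31, adjusted p 0.891, edgeR quasi-likelihood), and it was 0.08 with the counts of the copies Ptges3-ps and Gm11893 added.

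Fkbp4 (chromosome 6, 128429735 to 128438677, minus strand) encodes FKBP52, an immunophilin that joins HSP90 on steroid hormone receptors. It was at 140.1, 149 and 130.1 CPM in libraries S303/7A 5, 6 and 7, against 123, 133 and 161 CPM in WT 1, 2 and 3. The WT range contained the S303/7A range. S303/7A over WT gave a log2 fold of 0.01 ± 0.11 (SE, 95% interval -0.26 to 0.27, adjusted p 0.993, edgeR quasi-likelihood). Most called genes found near any member lay near Fkbp4. Within 5 Mb on each side of the Fkbp4 start, 7 of 123 tested genes passed the adjusted threshold (5.69%) and 41 the unadjusted one (33.3%), against 0.364% and 9.68% of all genes. The nearest called genes were the NK receptor genes Klrb1a (higher in S303/7A, 184.9 kb away) and Klrb1 (lower, 284.4 kb away). Around 8 other members no gene within 5 Mb was called, and around Stip1 it was 1 of 239, Ms4a2 (lower).

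Chordc1 (chromosome 9, 18292125 to 18317442, plus strand) encodes CHP-1, a co-chaperone with zinc-binding CHORD domains that binds the ATPase domain of HSP90. It was at 131, 119.9 and 99.2 CPM in libraries S303/7A 5, 6 and 7, against 103, 95.9 and 107 CPM in WT 1, 2 and 3. S303/7A 5 and 6 lay above every WT library and S303/7A 7 lay inside the WT range. The log2 fold was 0.19 ± 0.11 (SE, 95% interval -0.07 to 0.46), the highest of the 10 (adjusted p 0.667, edgeR quasi-likelihood). Without S303/7A 7 it was 0.29 ± 0.09 (adjusted p 0.356), and without S303/7A 5 it was 0.11 ± 0.11 (adjusted p 0.917).

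**Figure D2:**
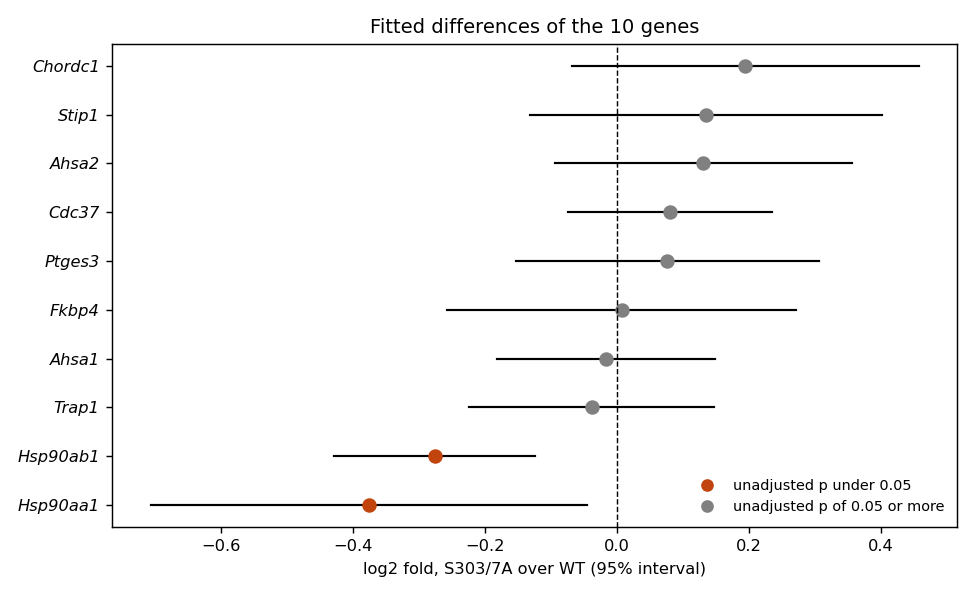
Fitted log2 fold of S303/7A over WT for each of the 10 genes (points) with its 95% interval (lines), ordered by fold from Chordc1 at 0.19 to Hsp90aa1 at -0.38. The intervals of Hsp90aa1 and Hsp90ab1 do not reach 0, and those of the other 8 genes do.

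The promoter letters are shown because HSF1, the protein altered in these mice, binds inverted repeats of GAA known as heat shock elements. RefSeq promoter windows of 300 bases (GRCm38.p6, 250 before and 50 from the start site on) matched 8 of the 10 members by symbol, and Hsp90aa1 and Hsp90ab1 were not matched. A pair of units was searched as TTCNNGAA or GAANNTTC and a triple as GAA, TTC and GAA, or TTC, GAA and TTC, with any 2 bases between units and 1 at each end. Each set reads the same on both strands, and the pairs may overlap each other and lie within triples. Of 32851 windows of all genes 15.1% held a pair and 0.597% a triple. Among the 8 members, Chordc1 held 5 pairs and 3 overlapping triples, while Cdc37 and Fkbp4 held 1 pair each and no triple. A window with 5 or more pairs was found 3 times among all windows. The Chordc1 pairs begin at -4, 2, 7, 12 and 34 from the start site, counted from 1 at that site, the Cdc37 pair at -170 and the Fkbp4 pair at -151. Those start sites are the ones of the RefSeq windows and differ from the starts of the gene spans given above. The windows are chr9:18292017-18292316 (plus strand) for Chordc1, chr9:21149885-21150184 (minus strand) for Cdc37 and chr6:128438607-128438906 (minus strand) for Fkbp4. They are given from 5′ to 3′ with the pairs in capitals.
Chordc1: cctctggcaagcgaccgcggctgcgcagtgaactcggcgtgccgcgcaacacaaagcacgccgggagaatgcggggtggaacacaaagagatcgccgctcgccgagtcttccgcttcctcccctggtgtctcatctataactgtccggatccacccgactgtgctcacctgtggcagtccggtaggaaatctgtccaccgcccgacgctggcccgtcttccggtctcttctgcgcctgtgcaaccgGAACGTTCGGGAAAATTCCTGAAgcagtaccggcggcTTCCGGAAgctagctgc
Cdc37: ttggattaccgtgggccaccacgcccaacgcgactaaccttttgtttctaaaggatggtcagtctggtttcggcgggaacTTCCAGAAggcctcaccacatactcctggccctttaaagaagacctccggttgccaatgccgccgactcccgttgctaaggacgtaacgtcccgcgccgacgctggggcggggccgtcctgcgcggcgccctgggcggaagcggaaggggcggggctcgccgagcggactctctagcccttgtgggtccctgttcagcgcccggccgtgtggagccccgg
Fkbp4: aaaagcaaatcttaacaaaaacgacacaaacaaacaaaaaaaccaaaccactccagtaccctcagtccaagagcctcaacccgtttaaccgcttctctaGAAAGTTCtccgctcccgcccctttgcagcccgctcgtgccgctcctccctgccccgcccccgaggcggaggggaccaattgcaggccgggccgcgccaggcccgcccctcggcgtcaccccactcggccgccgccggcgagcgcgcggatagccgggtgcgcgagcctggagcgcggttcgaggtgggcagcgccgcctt
Of 55 other HSP90 cycle genes with a window, 1 held a triple, Hsph1. The triple-bearing Chordc1 had the highest fold among the 10, with no call, and the single-pair genes Cdc37 and Fkbp4 were at 0.08 and 0.01. Among members with no pair in their windows, Trap1 was at -0.04, Ahsa1 at -0.02, Ptges3 at 0.08 and Stip1 and Ahsa2 at 0.13. The triple-bearing Hsph1 was at 0.33 ± 0.20 (SE), also with no call. The relation of these folds to the elements was not tested. Such a match describes letters and does not show that HSF1 binds there in NK cells.

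**Figure D3:**
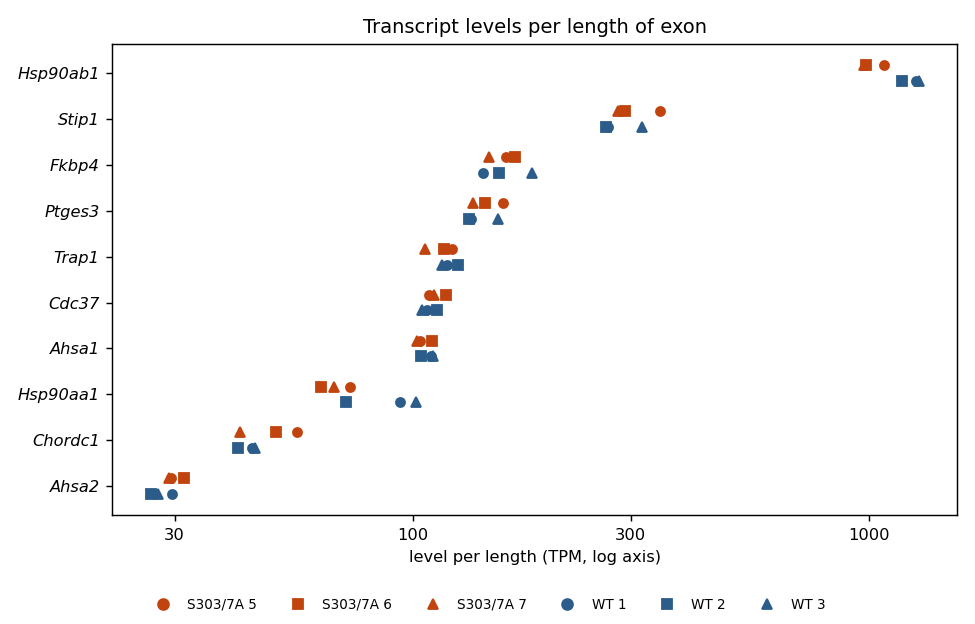
Level per length of exon of each of the 10 genes in each library, in TPM on a log axis, with S303/7A points above WT points in each row. Hsp90ab1 stands apart at 975 to 1076 TPM in S303/7A and 1178 to 1285 TPM in WT, and Ahsa2 is lowest at 26.6 to 31.5 TPM.

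Per length of exon, Hsp90ab1 was the most abundant member at 1011 ± 56.3 TPM in S303/7A and 1243 ± 57.4 TPM in WT (SD, n = 3 each), rank 104 in S303/7A and rank 81 in WT among the genes with a length. Stip1 followed at 307 ± 36.3 TPM in S303/7A and 283 ± 30.03 TPM in WT. Next came Fkbp4, at 158 ± 10.2 TPM in S303/7A and 159 ± 20.3 TPM in WT, and Ptges3, at 145 ± 11.03 TPM in S303/7A and 139.9 ± 11.8 TPM in WT, whose library ranges overlapped in both genotypes. Trap1 (115 TPM in S303/7A, 119.9 TPM in WT), Cdc37 (113 TPM in S303/7A, 108 TPM in WT) and Ahsa1 (105 TPM in S303/7A, 108 TPM in WT) lay close together. Cdc37 and Ahsa1 overlapped in both genotypes, and Trap1 and Cdc37 in S303/7A. Hsp90aa1 came below them at 67.4 ± 4.97 TPM in S303/7A and 88.7 ± 15.7 TPM in WT, then Chordc1 at 49.1 ± 6.97 TPM in S303/7A and 43.6 ± 2.00 TPM in WT. Ahsa2 came last at 30.1 ± 1.246 TPM in S303/7A and 27.9 ± 1.498 TPM in WT. The order was the same in S303/7A and WT. With the length of the longest transcript in place of all exons, Ahsa1 stood at place 3 instead of place 7, at 157 TPM in S303/7A and 161 TPM in WT. Cdc37 was divided by 8194 bases of exon, or 7851 bases of its longest transcript, the largest lengths of any member. If shorter transcripts gave most of its counts, its level per length would be higher, which was not tested. Its place below Stip1, Fkbp4, Ptges3 and Trap1 is therefore uncertain.

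**Figure D4:**
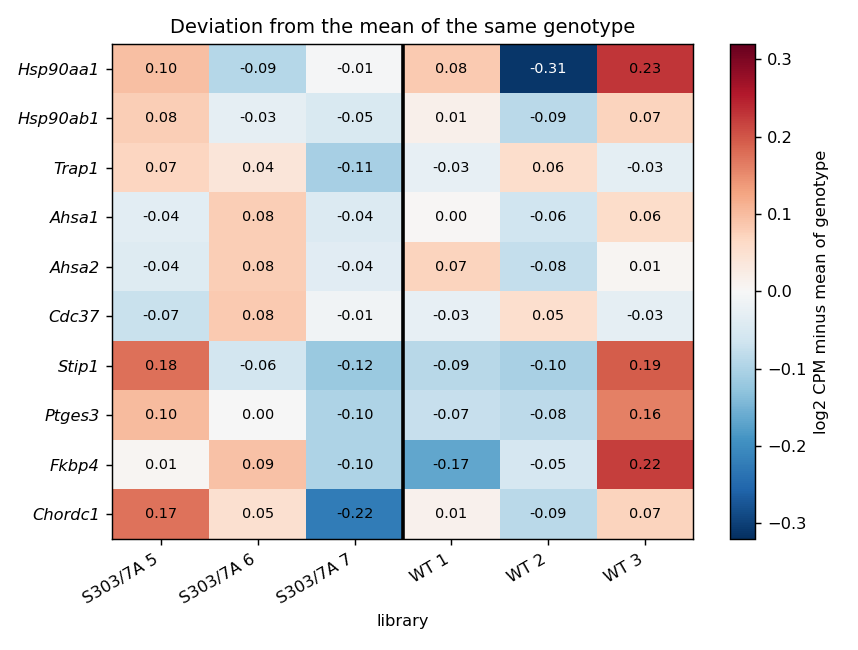
Deviation of log2 CPM in each library from the mean of the 3 libraries of its genotype, for each of the 10 genes, with red above and blue below that mean. WT 2 has the lowest value of the map, -0.31 for Hsp90aa1, and WT 3 the highest, 0.23 for the same gene.

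Within 1 genotype, the members' extremes lay mostly in the same libraries. S303/7A 7 had the lowest S303/7A level of 7 of the 10 genes and the highest of 0. WT 3 had the highest WT level of 7 of the 10 and WT 2 the lowest of 7. Of the 5051 genes at least as abundant as the lowest member, 42.9% were lowest in S303/7A 7, 42.6% highest in WT 3 and 32.3% lowest in WT 2. The median deviation over the members was -0.07 in S303/7A 7 and 0.07 in S303/7A 5, and 0.07 in WT 3 and -0.08 in WT 2, on the log2 scale. Hsp90aa1, Hsp90ab1, Stip1, Ptges3 and Chordc1 were highest in S303/7A 5 among S303/7A libraries and in WT 3 among WT libraries.

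Other genes of the HSP90 cycle were counted in lists: 1 paralog, 26 further co-chaperones, 4 genes of the R2TP complex, 12 genes on the HSP70 side and 22 clients. Of these 64 were tested, 1 was called, and it was lower, against 0.364% of all genes called. At an unadjusted p under 0.05 there were 6, 2 of them higher and 4 lower, or 9.38% against 9.68% of all genes. The median log2 fold was 0.04 for the 25 tested co-chaperones, -0.01 for the R2TP complex, 0.02 for the HSP70 side and 0.09 for the clients, beside 0.01 over all genes.

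The called gene was Nudcd3, which encodes a co-chaperone of the NudC family. It fell to 142, 133 and 127 CPM in libraries S303/7A 5, 6 and 7, against 229, 236 and 198 CPM in WT 1, 2 and 3, without overlap. Its means were 134 ± 7.46 CPM in S303/7A and 221 ± 20.2 CPM in WT (SD, n = 3 each). The log2 fold was -0.72 ± 0.09 (SE, adjusted p 0.0359, edgeR quasi-likelihood). It was called in 8 of 13 alternative fits, with adjusted p from 4.68e-07 to 0.150, and of the fits that left out 1 library only that without WT 3 called it. Nudcd3 lies on chromosome 11 (6105691 to 6200415), and the called gene Pik3ip1 lies 2.87 Mb away. Within 5 Mb, 24 of 94 tested genes had an unadjusted p under 0.05 (25.5%), against 9.68% of all genes. A high share is not particular to Nudcd3, as around Dnajb1, which was not called, it was 31 of 106 (29.2%).

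**Figure D5:**
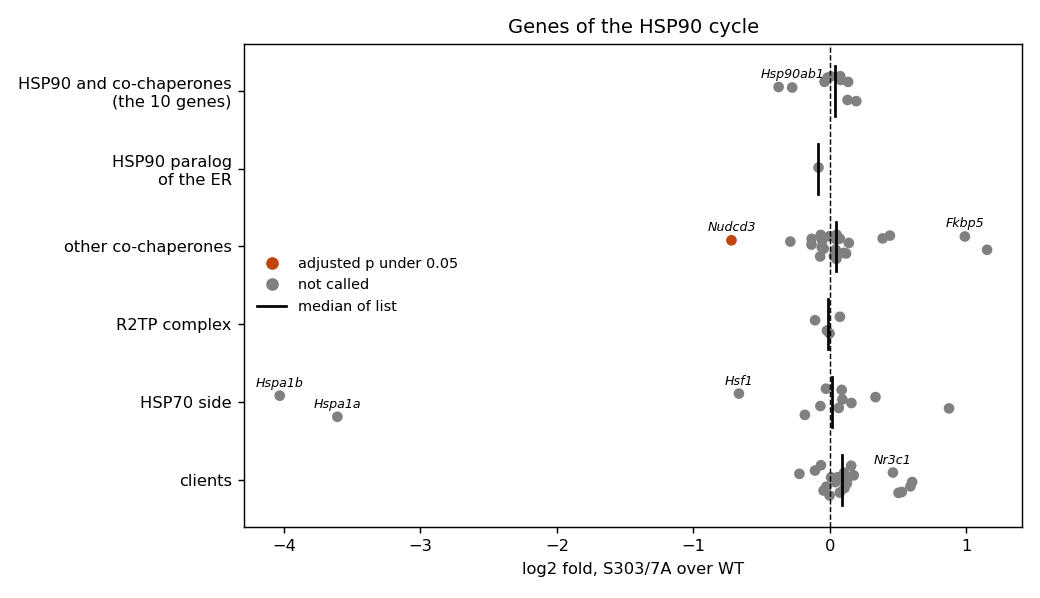
Log2 fold of S303/7A over WT for the 10 genes and for each tested gene of the other lists (points, spread vertically at random), with the median of each list as a bar. Nudcd3 at -0.72 is the called gene, and Hspa1a and Hspa1b lie furthest to the left at -3.61 and -4.03 without being called in the main edgeR test.

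Hsp90b1, the HSP90 of the endoplasmic reticulum, was at 608, 612 and 489 CPM in libraries S303/7A 5, 6 and 7, against 619, 605 and 595 CPM in WT 1, 2 and 3, a log2 fold of -0.09 ± 0.09 (SE, adjusted p 0.852, edgeR quasi-likelihood). S303/7A 7 was the low library here, and the log2 fold was 0.01 without it. Fkbp5, the FKBP51 immunophilin that holds the glucocorticoid receptor in its low-affinity state, measured 26.6, 19.5 and 40.5 CPM in S303/7A, against 14.3, 12.9 and 16.4 CPM in WT. Nr3c1, the gene of that receptor, measured 150.2, 160.1 and 185 CPM in S303/7A, against 122, 129 and 108 CPM in WT. Neither overlapped between the genotypes. Their log2 folds of 0.99 ± 0.26 and 0.46 ± 0.10 (SE) were not called (adjusted p 0.275 and 0.194, edgeR quasi-likelihood), while DESeq2 called both (0.00533 and 0.0275).

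On the HSP70 side, Hspa8, the constitutive HSP70, was at 591, 716 and 698 CPM in S303/7A, against 763, 678 and 834 CPM in WT, a log2 fold of -0.18 ± 0.10 (SE). Hsph1, a nucleotide exchange factor of HSP70, was at 115, 95.3 and 81.7 CPM in S303/7A, against 69.7, 62.5 and 99.5 CPM in WT, a log2 fold of 0.33 ± 0.20. Dnajb1, the main inducible J-domain partner, was at 204, 210.2 and 249.9 CPM in S303/7A, against 176, 178 and 240.1 CPM in WT, a log2 fold of 0.16 ± 0.14. Each of these overlapped between the genotypes and none was called (adjusted p from 0.656 to 0.813, edgeR quasi-likelihood).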

How the data were processed

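All values here come from the raw read counts by gene that the authors deposited, and their normalized table was not used. The submitters' processing notes name the build GRCm38 (mm10) and, in no stated role, featureCounts, STAR, Trimmomatic and DESeq2, and the sources used here give no versions, annotation release or strand setting. Analysis was in edgeR 4.0.16 under R 4.3.3: filterByExpr (minimum count 10, minimum total 15), TMM factors, and the quasi-likelihood test of S303/7A against WT with Benjamini-Hochberg adjustment over 16480 genes. SEs were computed from the fitted means, the dispersion and the quasi-dispersion. P-values rest on 3 mice per genotype. Library pairs of a genotype had a chi-square per gene of 29.5 to 92.7, so no pair agreed within sampling noise. Levels per length used the union of exons in GENCODE M21 (release 21, GRCm38), which matched 96.4% of gene names. Copies were sought with BLAST 2.17.0 (at least 200 bases at 90% identity), with the longest protein-coding transcript of each member. Calls and folds were repeated with DESeq2 1.42.0, limma-voom 3.58.1, RLE factors, library totals, no low-count filter, robust fitting, thinning to equal totals and each library left out.

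The 10 genes and the lists were chosen with earlier results of these data known. Genes named outside the members were Hsp90b1, Hspa8, Hsph1, Dnajb1 and Hsf1, those called, and up to 3 per list with the smallest unadjusted p under 0.05. Genes named beside them as neighbours, copies or overlapping genes follow from position or sequence. One list of cell type markers is not reported here.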

Additional observations from a re-analysis of the deposited data

How the results depend on the processing

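Over 13 alternatives none of the 10 genes was called, and 121 of 130 pairs of gene and alternative kept the sign of the fold. The other 9 concerned Fkbp4, Ahsa1 and Trap1, whose folds lie near 0, and their cause was not tested. Fkbp4 was at -0.0217 with library totals, -0.00021 with no low-count filter and -0.077 to 0.125 with 1 library left out, below 0 when that was WT 1, WT 2 or S303/7A 6. With 1 library left out Ahsa1 was at -0.0585 to 0.013 (above 0 for WT 3, S303/7A 5 or 7), Trap1 at -0.0723 to 0.0095 and Hsp90b1 at -0.145 to 0.0064 (both above 0 for S303/7A 7). The number of genes called was 60 in the main test, 434 with DESeq2, 38 with limma-voom, 171 with no low-count filter and 5 (without WT 2) to 57 (without S303/7A 6) with 1 library left out. Without S303/7A 6, 38 of them were higher and 19 lower, against 22 higher and 38 lower with all libraries. Other HSP90 cycle genes called were 1, 4 with DESeq2, 2 with no low-count filter and 0 to 1 with 1 library left out. The median fold of all genes shifted by less than 0.1 in every setting. No paired analysis was possible because the genotypes share no replicate number. With 3 mice per genotype, intervals of the members' log2 folds spanned up to -0.71 to -0.04.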

Other observations

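The genes whose centred log2 CPM over the 6 libraries lay closest to Hsp90aa1, among 5694 genes with a mean log2 CPM of at least 5, were Gabarapl1, an autophagy gene of the Atg8 family (root mean square difference 0.0937), Dnajb4, a J-domain partner of HSP70 (0.0944), and Tnrc6c, a protein of microRNA silencing (0.111). Closest to Hsp90ab1 were Rbis (0.0409), Farsa, a subunit of phenylalanyl-tRNA synthetase (0.0437), and Echs1, an enzyme of mitochondrial fatty acid oxidation (0.0467). None of these was called. Their log2 folds were -0.39, -0.26, -0.19, -0.28, -0.34 and -0.24 in that order. They were picked by likeness over both genotypes, so folds near those of Hsp90aa1 and Hsp90ab1 follow from the choice.

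Among tested genes, 62 had a promoter window with a triple of heat shock element units. Of these edgeR called 0, and 1 was higher and 1 lower at an unadjusted p under 0.05. That is 3.23%, against 10.3% of the 10726 tested genes with a window. So small a count gives an imprecise share, and the difference between these shares was not tested. Their median log2 fold was 0.01, against 0.00 for tested genes with a window. The 1536 genes with a pair had 10.4% at an unadjusted p under 0.05 and a median of 0.00.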
